A study of Mus musculus with 2 samples.

Results

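Ccl2, Ccl7, Ccl8, Ccl12 and the receptor gene Ccr2 were followed across the cell classes of 2 lung libraries. These 5 genes were taken by name from the 27999 genes listed in both matrices. The low-burden library came from 1 female FVB/NJ mouse, injected into the tail vein at 10 weeks of age with Met-1 mammary carcinoma cells of the mouse, and sampled at week 1. The high-burden library came from 1 such mouse at week 3. Both mice therefore carried injected carcinoma cells, an uninjected lung was not among the samples, and intravenous injection models growth in the lung and not escape from a primary tumor. Whole perfused lungs were dissociated and cells were captured on the 10x Genomics platform without a sort.

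These chemokines are small secreted proteins named for a pair of adjacent cysteines. Ccl2 (MCP-1), Ccl7 (MCP-3), Ccl8 (MCP-2) and Ccl12 (MCP-5) are the monocyte chemoattractant proteins of the mouse. Ccr2 encodes the G protein-coupled receptor through which Ccl2 draws classical monocytes out of the bone marrow and into inflamed tissue. In lungs that carry mammary carcinoma cells, recruited monocytes give rise to macrophages that surround the metastases.

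The 4 ligand genes lie together on chromosome 11 (GRCm38, GENCODE M21), all on the plus strand and each with 3 exons. Ccl2 (ENSMUSG00000035385) spans chr11:82035571-82037453, Ccl7 (ENSMUSG00000035373) spans chr11:82045712-82047525, Ccl12 (ENSMUSG00000035352) spans chr11:82101845-82103400 and Ccl8 (ENSMUSG00000009185) spans chr11:82115185-82116799, so that the genes fit within 81.2 kb together with Ccl11. Gm17268 overlaps Ccl2 on the minus strand and had 0 UMIs in either library, and whether counting used strand was not given in the sources used here. Ccr2 (ENSMUSG00000049103) lies on the plus strand of chromosome 9 at chr9:124101950-124113557. The coding sequence around the paired cysteine codons, in exon 2 of each ligand, is shown because it is the feature that the 4 genes share, with these 2 codons in capitals.
Ccl2, chr11:82036491-82036565: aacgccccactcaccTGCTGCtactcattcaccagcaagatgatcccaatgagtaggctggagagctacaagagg
Ccl7, chr11:82046523-82046597: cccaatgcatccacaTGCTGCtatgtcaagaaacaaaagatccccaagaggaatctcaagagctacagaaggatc
Ccl8, chr11:82116041-82116115: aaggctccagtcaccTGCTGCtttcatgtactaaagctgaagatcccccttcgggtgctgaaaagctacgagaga
Ccl12, chr11:82102619-82102693: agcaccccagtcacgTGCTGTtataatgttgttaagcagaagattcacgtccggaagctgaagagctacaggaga
Ccl8 and Ccl12 shared 54 of these 75 bases (72%). Over the whole coding transcripts, the longest run that any 2 ligands had in common was 23 bases, between Ccl2 and Ccl7.

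The promoters of the neighbours Ccl12 and Ccl8 are shown because the promoter set used here held no entry for Ccl2 or Ccl7. They are the 250 bases before each RefSeq start (GRCm38.p6, plus strand), with the letters TATAAAA in capitals.
Ccl12, chr11:82101595-82101844: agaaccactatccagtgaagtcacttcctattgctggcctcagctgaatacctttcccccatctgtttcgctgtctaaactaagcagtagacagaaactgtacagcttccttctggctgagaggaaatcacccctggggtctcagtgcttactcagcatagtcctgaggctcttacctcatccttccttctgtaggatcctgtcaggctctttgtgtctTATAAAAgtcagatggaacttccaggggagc
Ccl8, chr11:82114935-82115184: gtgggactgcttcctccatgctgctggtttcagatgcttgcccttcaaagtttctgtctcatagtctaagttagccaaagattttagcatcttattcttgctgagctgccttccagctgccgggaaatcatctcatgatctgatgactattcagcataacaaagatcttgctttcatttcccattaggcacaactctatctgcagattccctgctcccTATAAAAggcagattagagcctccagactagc
The motif began 31 bases before the Ccl12 start and 32 bases before the Ccl8 start. TATAAAA on either strand was found in 4.98% of 32851 such windows, and on the forward strand of the last 50 bases in 1.11%. The Ccr2 window held no TATAAAA, and none of these 3 windows held TGACTCA, which was found in 4.46% of windows. The table matched Ccl8, Ccl12 and Ccr2 of the 5 genes.

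Cells were assigned to classes by gates on marker genes. A unique molecular identifier (UMI) counts 1 captured transcript, and levels are given as UMIs per 1000000 UMIs of a class (CPM). The 2473 low-burden and 3033 high-burden cells had medians of 4073 and 13998 UMIs, and 11 barcodes occurred in both libraries. The C1q macrophage-like class (with C1qa, C1qb, C1qc and Ms4a7 among its markers) had 53 low-burden and 755 high-burden cells, 2.14% and 24.9% of each library. The metastatic-like class had 1408 cells, all at high burden, and 64.6% of the UMIs of that library. Xist, held out of its marker list, was at 32.9 CPM in metastatic-like cells and between 320 and 991 CPM in the other classes with at least 20 cells. Because each group is 1 mouse and 1 library, no test between groups was possible. The 95% intervals cover counting error only and not the spread between cells or between mice.

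At the level of the library, all 4 ligand genes were higher at high burden and Ccr2 was not. Ccl2 had 259 UMIs (19.5 CPM) at low burden and 9498 UMIs (184.5 CPM) at high burden. Ccl7 went from 111 UMIs (8.36 CPM) to 8560 UMIs (166.3 CPM), Ccl8 from 64 (4.82 CPM) to 3317 (64.5 CPM) and Ccl12 from 121 (9.11 CPM) to 13692 (266 CPM). These were ratios of 9.47-fold, 19.9-fold, 13.4-fold and 29.2-fold. Ccr2 stood at 508 UMIs (38.2 CPM) and 2033 UMIs (39.5 CPM), a ratio of 1.03-fold. Outside metastatic-like cells, which were seen only at high burden, the ratio was larger for all 5 genes, at 2.73-fold for Ccr2. Past 2-fold higher were 4 of the 5 genes, against 11.8% of 13635 genes with at least 50 UMIs, whose median log2 ratio was -0.28.

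C1q macrophage-like cells held most UMIs of every ligand at high burden. Their share of the high-burden UMIs was 76.9% for Ccl2, 78.3% for Ccl7, 82.4% for Ccl8 (exact binomial 95% interval 81.1 to 83.7) and 84.8% for Ccl12 (84.2 to 85.4). At low burden the same class held 37.1% of Ccl2 UMIs (31.2 to 43.3), 45.9% of Ccl7, 21.9% of Ccl8 and 94.2% of Ccl12 (88.4 to 97.6). Most Ccl12 UMIs were thus in this class in both libraries, whereas most UMIs of each other ligand lay outside it at low burden. Of the 114 low-burden Ccl12 UMIs of the class, 52 came from 1 cell, a spread that the interval leaves out. Alveolar macrophage-like cells held 27.0% of low-burden Ccl2 UMIs and 20.7% of Ccl7 UMIs. Fibroblast-like cells held 60.9% (47.9 to 72.9) of the 64 low-burden Ccl8 UMIs. The UMI share of C1q macrophage-like cells themselves was 9.43-fold larger at high burden, 16.2% against 1.72% of all UMIs.

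**Figure D1:**
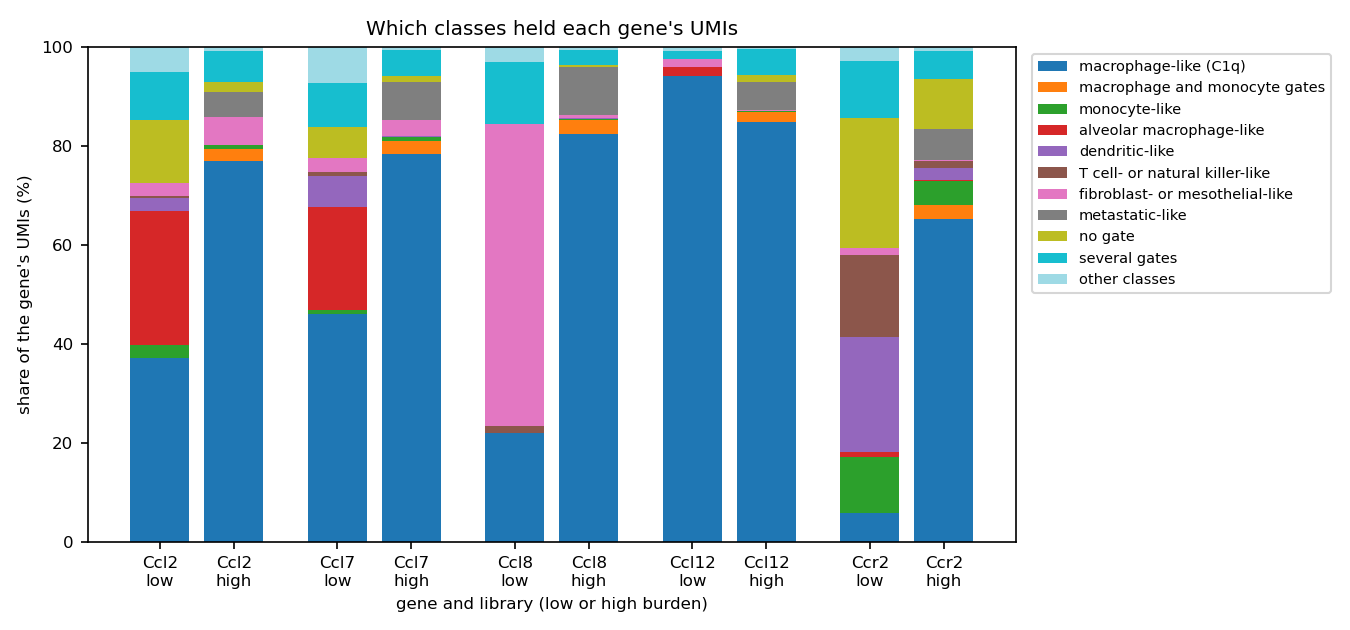
Each bar is 1 gene in 1 library and stacks the share (%) of the gene's UMIs held by each class; "several gates" are cells past more than 1 unrelated gate. C1q macrophage-like cells (blue) held 76.9% to 84.8% of the ligand UMIs at high burden, while low-burden Ccl2 and Ccl7 were shared with alveolar macrophage-like cells and low-burden Ccl8 with fibroblast-like cells.

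Within the C1q macrophage-like class, the CPM of each ligand was also higher at high burden. Ccl2 was at 420 CPM (341 to 514, 96 UMIs) in the low-burden library and 876 CPM (856 to 896, 7306 UMIs) in the high-burden library. Ccl7 was at 223 CPM (166 to 294) and 803 CPM (784 to 823), and Ccl12 at 499 CPM (412 to 600) and 1392 CPM (1367 to 1418). Ccl8 was at 61.3 CPM (33.5 to 103, 14 UMIs) and 328 CPM (316 to 340, 2734 UMIs). The low- and high-burden intervals did not overlap for any of the 4, but they leave out the spread between cells. Of the low-burden UMIs, 14 of 51 for Ccl7 and 5 of 14 for Ccl8 came from 1 cell each. When all kept cells were instead clustered by expression (Leiden), the clusters that took this class's name were uneven between libraries. They had 389, 337 and 86 high-burden against 5, 2 and 1 low-burden cells. A further cluster, with 62.3% of its cells past the C1q gate, had 41 against 81. The class may thus be a different mixture of macrophages in each library, which was not tested.

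In this class the log2 ratio, high over low, was 1.06 (0.77 to 1.36) for Ccl2, 1.85 (1.45 to 2.27) for Ccl7, 2.42 (1.67 to 3.29) for Ccl8 and 1.48 (1.21 to 1.76) for Ccl12. For Ccr2 it was 0.32 (-0.21 to 0.91). All 4 ligands and not Ccr2 were past 2-fold higher, which 14.0% of the 8615 genes with at least 50 UMIs in the class were. A higher ratio than that of Ccl8 was seen for 129 of these genes, and than that of Ccl2 for 1102. The Ccl2 call did not hold at equal depth, where its log2 ratio was 0.66, nor with free RNA subtracted (1.00). For Ccl12, 52 of the 114 low-burden UMIs came from 1 cell, and without the top cell of each library its log2 ratio was 2.28.

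**Figure D2:**
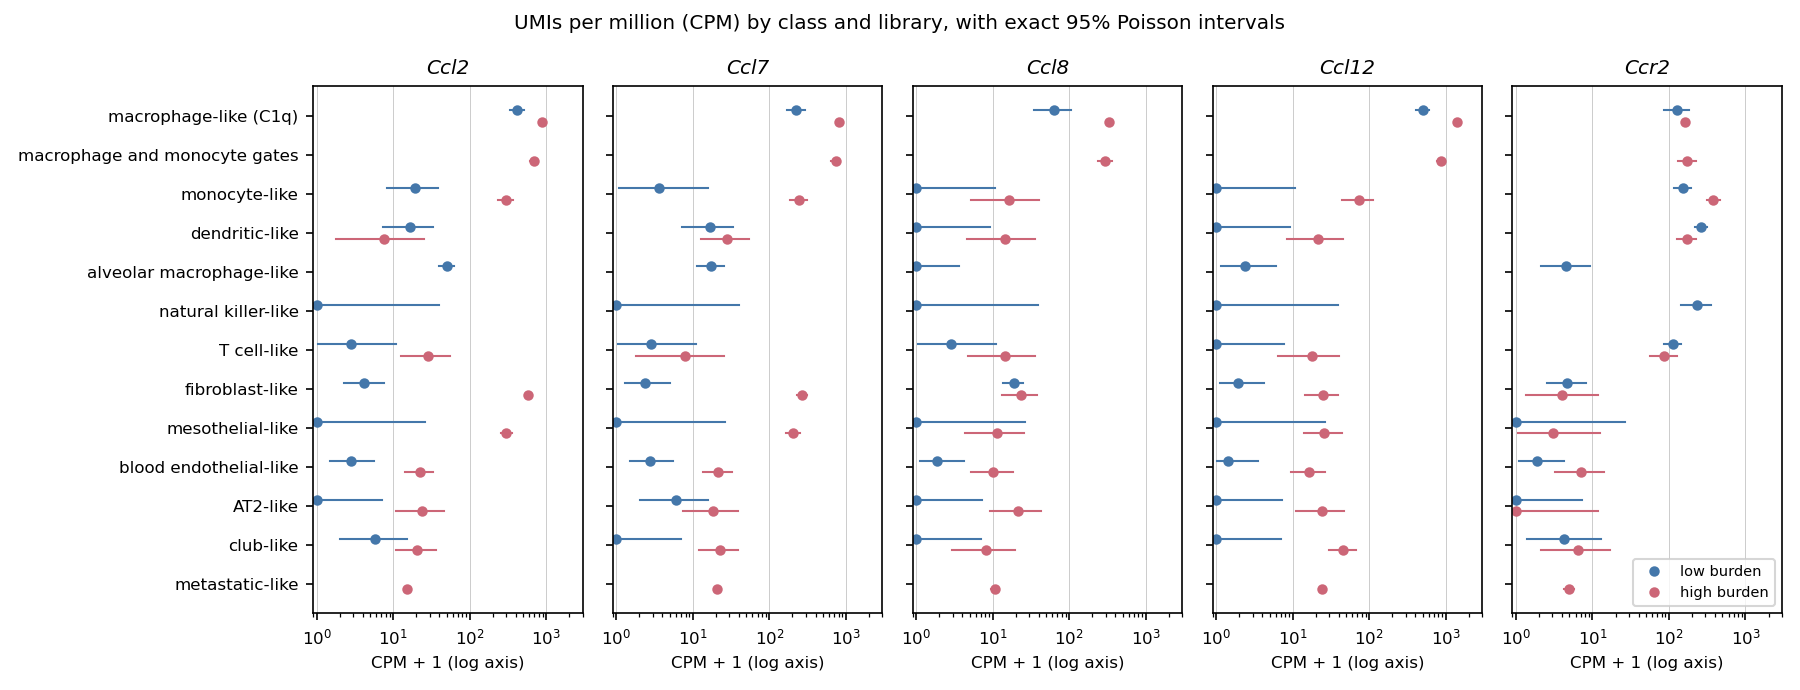
Points are CPM + 1 on a log axis for each gene (panels) in the classes listed, where a class had at least 20 cells, in the low-burden (blue) and high-burden (red) library, with exact 95% Poisson intervals. The ligands peaked in C1q macrophage-like cells, Ccl2 and Ccl7 also stood near or above 200 CPM in high-burden monocyte-like, fibroblast-like and mesothelial-like cells, and Ccr2 was at 85.1 CPM or more in C1q macrophage-like, monocyte-like, dendritic-like, T cell-like and natural killer-like cells.

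Deeper cells show more genes, so shares of cells were compared after every cell was thinned to 2000 UMIs, at which no cell of this class was left out. A Ccl2 UMI was then seen in 32.1% (19.9 to 46.3) of low-burden and 53.9% (50.3 to 57.5) of high-burden C1q macrophage-like cells, against 41.5% and 79.6% at full depth. Ccl7 was seen in 18.9% (9.44 to 32) and 44.9% (41.3 to 48.5), and Ccl12 in 18.9% and 53.9%. AT2-like cells were taken as background, though whether they express these genes was not tested. Their high-burden shares at the same depth were 4.44% for Ccl2, 2.22% for Ccl7 and 11.1% for Ccl12 (5 of 45 cells, 3.71 to 24.1). Full-depth medians were 10428 UMIs in high-burden macrophage-like and 6094 in high-burden AT2-like cells. The macrophage-like shares of Ccl2, Ccl7 and Ccl12 lay above this background.

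Ccl8 had a different distribution. At equal depth it was seen in 11.3% (4.27 to 23.0) of low-burden and 12.3% (10.1 to 14.9) of high-burden C1q macrophage-like cells. The low-burden background was 0 of 106 AT2-like cells, which allows up to 2.83%. At high burden it was 1.42% (0.87 to 2.19) in metastatic-like, 4.26% (1.17 to 10.5) in blood endothelial-like and 11.1% (3.71 to 24.1) in AT2-like cells. The AT2-like share moved with the depth, from 0 of 45 cells at 1000 UMIs to 4.44% at 4000 UMIs, where the high-burden macrophage-like shares were 9.27% and 17.4%. At 2000 UMIs the macrophage-like shares thus lay above low-burden AT2-like and high-burden metastatic-like cells. The high-burden macrophage-like interval overlapped those of blood endothelial-like and AT2-like cells. The low- and high-burden macrophage-like intervals of Ccl8 also overlapped. Its UMIs were held by few cells: at full depth, 8 of the 755 cells held 50% of them, 39 cells with at least 10 UMIs held 87.0%, and 1 cell had 358 UMIs. The same 50% took 91 cells for Ccl2, 76 for Ccl7, 82 for Ccl12 and 112 for Ccr2. Outside the class, at least 10 Ccl8 UMIs were seen in 2 cells of the macrophage and monocyte gates, 2 cells past several gates and 1 low-burden fibroblast-like cell.

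**Figure D3:**
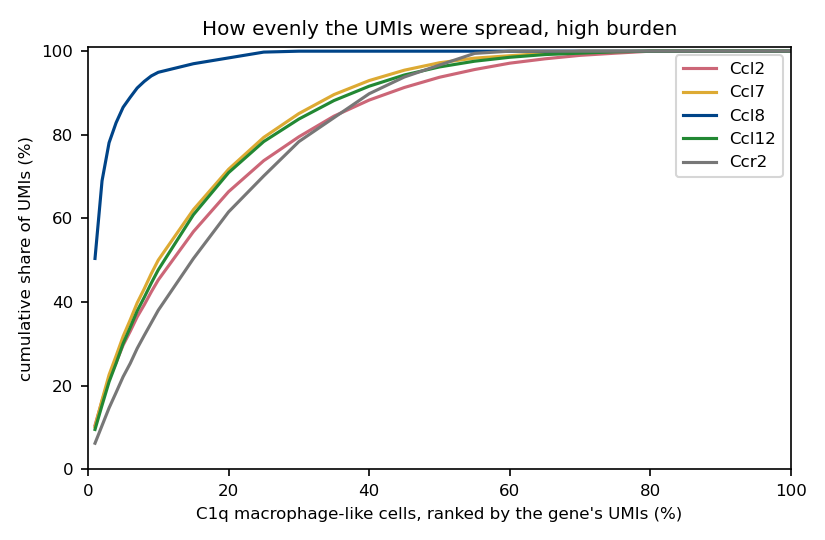
For each gene, the 755 high-burden C1q macrophage-like cells were ranked by the gene's UMIs (x axis, % of cells) and the cumulative share of its UMIs (%) was drawn. The top 10% of cells held 94.9% of Ccl8 UMIs but 45.3% of Ccl2, 50.0% of Ccl7, 47.7% of Ccl12 and 38.0% of Ccr2 UMIs.

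The 39 Ccl8-rich cells were picked by their Ccl8 and are given as a description. They were no deeper than the other 716 macrophage-like cells (medians of 9972 and 10460 UMIs), and Ccl2 was at 867 against 876 CPM. Apoe, a lipid carrier, was at 16250 against 5491 CPM, Sepp1 (selenoprotein P) at 1813 against 555 CPM, Clec10a (a macrophage lectin) at 184 against 54.3 CPM and Ms4a7 at 995 against 368 CPM. Saa3, an acute-phase protein, was at 174 against 2084 CPM and Fn1 (fibronectin) at 260 against 777 CPM. Ccr2 was at 127 against 161 CPM.

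The ligands other than Ccl8 were met in the same cells. At 2000 UMIs per cell, 27.2% of high-burden C1q macrophage-like cells showed 3 of the 4 ligands and 2.78% all 4, while 22.4% showed none. Of the low-burden cells, 50.9% showed none and 5.66% (3 of 53) showed 3. Among the 407 high-burden cells with a Ccl2 UMI, 64.9% had a Ccl7 UMI, against 21.6% of the cells without Ccl2. Ccl12 was seen in 71.5% and 33.3% of the same groups. Ccl8 was seen in 9.58% of cells with Ccl2 and 15.5% of cells without, an order that turned at 1000 UMIs per cell (11.3% and 7.95%). For Ccr2 the shares were 26.3% and 23.3%. The Pearson correlation of Ccl2 with Ccl7 UMIs over the 755 cells, which share 1 library and depth, was 0.576.

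**Figure D4:**
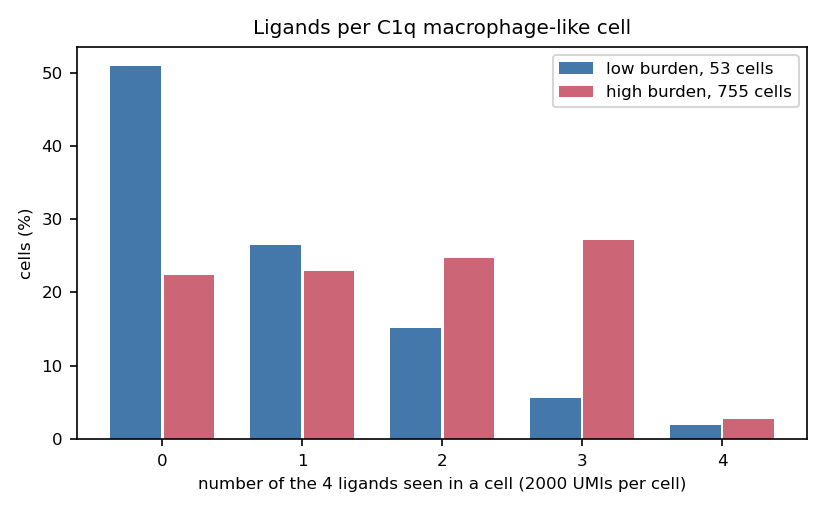
Bars give the share (%) of C1q macrophage-like cells in which 0 to 4 of the ligands were seen once each cell was thinned to 2000 UMIs, for 53 low-burden (blue) and 755 high-burden (red) cells. No ligand was seen in 22.4% of cells at high burden and in 50.9% at low burden.

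High-burden macrophage-like cells with an Arg1 UMI (114 cells; Arg1 is arginase 1) and without (641 cells) differed most in Ccl12, at 539 CPM (500 to 580) and 1552 CPM (1523 to 1582). Ccl2 was at 671 and 914 CPM and Ccr2 at 91.8 and 172 CPM in the same groups. All 53 low-burden cells of the class were without an Arg1 UMI, at a median depth of 3903 UMIs.

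Monocyte-like cells are where the receptor is classically found. Ccr2 was at 151 CPM (115 to 195, 105 cells) at low burden and 380 CPM (309 to 462, 31 cells) at high burden, a log2 ratio of 1.33 (0.85 to 1.82). This class was made up differently in the 2 libraries. Of the low-burden cells, 42 passed the gate of classical monocytes alone, 28 that of patrolling monocytes alone and 35 both, while 30 of the 31 high-burden cells passed the classical gate alone. Ccr2 was at 294 CPM in the low-burden classical cells, 48.8 CPM in cells past both gates and 31.8 CPM (6.56 to 92.9) in patrolling cells. Among classical cells the high-burden level was 388 CPM (316 to 472) and the log2 ratio 0.40, under 2-fold.

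Ligand levels in monocyte-like cells were lower than in C1q macrophage-like cells. Ccl2 was at 18.2 CPM (7 UMIs) at low burden and 300 CPM (237 to 374, 79 UMIs) at high burden, and Ccl7 at 2.61 CPM (1 UMI) and 243 CPM (64 UMIs). The log2 ratios were 4.04 (2.93 to 5.40) and 6.54 (4.01 to 11.87). All low-burden UMIs of both genes were in cells of the classical gate alone, and among such cells Ccl2 was at 42.0 and 307 CPM (log2 ratio 2.87) and Ccl7, from 1 low-burden UMI, had a log2 ratio of 5.37. At 2000 UMIs per cell the Ccl2 ratio of the class was 2.76. Of the high-burden UMIs, 49 Ccl2 and 50 Ccl7 UMIs came from the same high-burden cell. Without it the levels were 122 and 57.1 CPM. Ccl12 had 0 UMIs at low burden and 19 at high burden, 15 of them in that cell. With at least 50 UMIs were 3 of the 5 genes (Ccl2, Ccl7 and Ccr2), and all 3 were past 2-fold higher, against 9.11% of 1757 genes in this class. At high burden, 28 cells passed both the macrophage and the classical monocyte gates. Their levels were 696 CPM for Ccl2, 733 CPM for Ccl7, 294 CPM for Ccl8 (71 of 96 UMIs in 1 cell), 865 CPM for Ccl12 and 172 CPM (130 to 223) for Ccr2.

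Across these 3 high-burden classes, Ccr2 and Ccl12 ran in opposite orders. Ccr2 stood at 380, 172 and 159 CPM in monocyte-like cells, cells of both gates and C1q macrophage-like cells, and the intervals of the last 2 overlapped. Ccl12 stood at 72.1, 865 and 1392 CPM in the same order, with no overlap. Ccr2 nevertheless remained detectable in macrophage-like cells, in 24.9% (21.9 to 28.2) at 2000 UMIs against 0.426% of metastatic-like cells. None of 45 AT2-like cells showed it, a count that allows up to 6.67%. This class held 65.2% of the high-burden Ccr2 UMIs and 5.71% of those at low burden.

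Other classes with Ccr2 were dendritic-like, natural killer-like and T cell-like. Dendritic-like cells (Flt3, Xcr1, Cd209a) were at 264 CPM (219 to 316) and 171 CPM (128 to 225) at low and high burden. T cell-like cells were at 112 and 85.1 CPM, and the 28 low-burden natural killer-like cells at 230 CPM (144 to 348). Cells past no gate, whose leading genes included the antigen-presentation gene H2-Aa, Naaa and Plbd1 in both libraries, were at 190 and 127 CPM. Blood endothelial-like, AT2-like, fibroblast-like and alveolar macrophage-like cells were at 6.1 CPM or less in both libraries, where they had at least 20 cells. Among the named classes, the order at low burden was dendritic-like, natural killer-like, monocyte-like, macrophage-like and T cell-like, and each interval overlapped the next.

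Alveolar macrophage-like cells could be followed at low burden, since the high-burden library had 6 of them. Among 400 low-burden cells, Ccl2 was at 49.3 CPM (38.4 to 62.3) and Ccl7 at 16.2 CPM (10.3 to 24.3). No Ccl8 UMI was seen, which allows up to 2.11 CPM, and Ccl12 had 2 UMIs (1.41 CPM). At 2000 UMIs, 7.5% of the cells showed Ccl2 and 0.5% more than 1 ligand. The C1q genes of these cells were at 0.187% of their level in C1q macrophage-like cells, and Ccl2 scaled by that share would be 0.786 CPM.

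Among stromal cells, Ccl2 and Ccl7 but not Ccl8 were far higher at high burden. In fibroblast-like cells Ccl2 was at 3.17 CPM (7 UMIs in 466 cells) at low burden and 584 CPM (528 to 645, 396 UMIs in 67 cells) at high burden, a log2 ratio of 7.53 (6.47 to 8.85). Ccl7 was at 1.36 CPM (3 UMIs) and 264 CPM (179 UMIs), a log2 ratio of 7.60 (6.03 to 9.89). Ccl8 was at 17.7 CPM (12.6 to 24.2) and 22.1 CPM (12.4 to 36.5), a log2 ratio of 0.33 (-0.64 to 1.22). Of its 39 low-burden UMIs, 13 and 8 came from 2 cells. The high-burden level was near that of AT2-like cells (20.3 CPM), which had 0 Ccl8 UMIs at low burden. The ratio therefore cannot tell whether Ccl8 of the fibroblast-like cells themselves changed. Of 3 genes with at least 50 UMIs, Ccl2 and Ccl7 were past 2-fold higher, against 4.92% of 6280 genes, whose median log2 ratio was -0.11. At 2000 UMIs, Ccl2 was seen in 0.858% of low-burden and 20.9% (11.9 to 32.6) of high-burden fibroblast-like cells.

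These UMIs sat in few cells, and those cells carried some mesothelial markers without passing the mesothelial gate. Of the 396 high-burden Ccl2 UMIs, 187 came from 1 cell (322 CPM without it) and 372 from 8 cells with at least 10 each. Wt1, a transcription factor of mesothelial cells, was seen in all 8, at 226 CPM against 23.8 CPM in the other 59 fibroblast-like cells, and Msln (mesothelin) was at 81 against 7.92 CPM. Msln was seen in 5 of the 8, and the mesothelial markers Upk3b and Lrrn4 in 4 each. Inmt, a lung fibroblast enzyme, was at 121 against 5453 CPM and Mfap4, a matrix protein, at 57.9 against 2145 CPM. Dcn (decorin) and Col1a2 (a type I collagen chain) were at 5822 and 2199 CPM in the 8 cells. Their median depth was 20320 against 6414 UMIs, Xist was at 839 against 790 CPM, Ptprc (CD45) had 1 UMI, and 6 of the 8 had a Ccl7 UMI and 0 a Ccl8 UMI.

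A Wt1 UMI was seen in 1 of 466 low-burden and 13 of 67 high-burden fibroblast-like cells, at median depths of 4388 and 6815 UMIs. The class was thus made up differently in each library. The 13 cells held 377 of the 396 high-burden Ccl2 UMIs. Among these 13 high-burden cells with a Wt1 UMI, Ccl2 was at 1454 CPM and Ccl7 at 583 CPM. In the 54 without, the levels were 45.4 CPM (19 UMIs) and 66.9 CPM (28 UMIs), and the log2 ratios over low burden were 3.83 and 5.61. The mesothelial-like class, defined by these markers, had 0 Ccl2 and 0 Ccl7 UMIs in 20 low-burden cells, 10 of them with Wt1, which allows up to 20.5 CPM. Its 26 high-burden cells were at 300 CPM (253 to 353) for Ccl2 and 202 CPM (164 to 246) for Ccl7, at least 14.6-fold and 9.85-fold higher. Of these, 79 Ccl2 and 40 Ccl7 UMIs came from 1 cell, and without it the levels were 144 and 127 CPM. The 16 high-burden smooth muscle or pericyte-like cells were at 131 CPM (88.2 to 187) for Ccl2, from 30 UMIs.

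**Figure D5:**
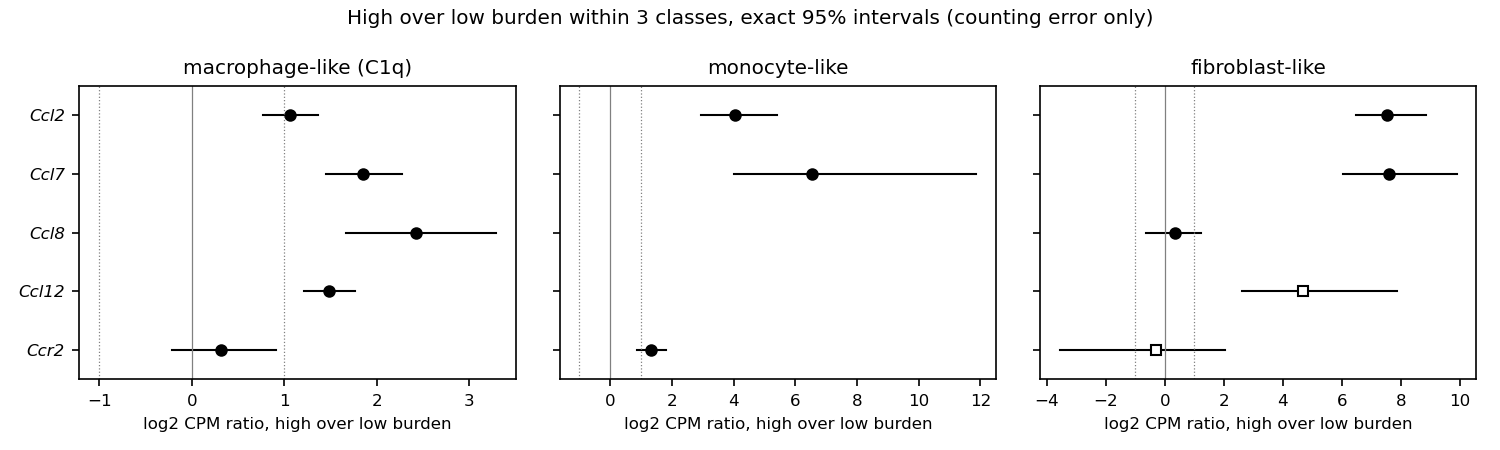
Points give the log2 ratio of CPM, high over low burden, in 3 classes whose axes differ in range, with exact 95% intervals; filled circles had at least 50 UMIs over both libraries and open squares fewer, dotted lines mark 2-fold, and ratios against 0 UMIs are not drawn. Ccl2 and Ccl7 lay at 7.53 and 7.60 in fibroblast-like cells against 1.06 and 1.85 in C1q macrophage-like cells, and at 3.83 and 5.61 in fibroblast-like cells without a Wt1 UMI, which are not drawn.

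The make-up of the ligands differed between these sources. Of the ligand UMIs of high-burden C1q macrophage-like cells, 25.8% were Ccl2, 23.6% Ccl7, 9.64% Ccl8 and 41.0% Ccl12. In high-burden mesothelial-like cells, 55.8% were Ccl2, 37.6% Ccl7, 1.94% Ccl8 and 4.65% Ccl12. In high-burden fibroblast-like cells the shares were 65.3%, 29.5%, 2.48% and 2.64%, and they were set by the 8 cells described above. The other 59 fibroblast-like cells had 24 Ccl2, 36 Ccl7, 15 Ccl8 and 10 Ccl12 UMIs, with Ccl7 ahead of Ccl2. The Ccl12 level of fibroblast-like cells, 23.6 CPM, was near that of AT2-like (23.2 CPM) and blood endothelial-like cells (15.2 CPM). Whether this Ccl12 came from free RNA was not tested. For Ccl2 the order at high burden was C1q macrophage-like, macrophage and monocyte gates, fibroblast-like, then monocyte-like and mesothelial-like, and the intervals overlapped between cells of both gates and fibroblast-like cells and between the last 2. The place of fibroblast-like cells rested on the 13 cells with a Wt1 UMI, since the 54 without were at 45.4 CPM, under monocyte-like and mesothelial-like cells.

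In metastatic-like cells, the levels of all 5 genes lay within the intervals of blood endothelial-like cells. Whether blood endothelial-like cells express these genes themselves was not tested. Over 1408 cells, Ccl2 was at 14.0 CPM (12.8 to 15.3), Ccl7 at 19.7 CPM, Ccl8 at 9.59 CPM, Ccl12 at 23.0 CPM and Ccr2 at 3.94 CPM. In blood endothelial-like cells the same genes were at 21.3, 20.3, 9.15, 15.2 and 6.1 CPM. C1q genes, which carcinoma cells should lack, were at 2.24% of their macrophage-like level in metastatic-like cells. Scaled by that share, the macrophage-like levels give 19.6 CPM for Ccl2, 18 CPM for Ccl7, 7.33 CPM for Ccl8, 31.2 CPM for Ccl12 and 3.56 CPM for Ccr2. The highest count in any metastatic-like cell was 7 UMIs for Ccl2, 15 for Ccl7, 3 for Ccl8 and 13 for Ccl12, at a median depth of 21802 UMIs. At 2000 UMIs, 2.7% of these cells showed Ccl2 and 4.83% Ccl12. The levels of Ccl7 (18.3 to 21.3) and Ccl8 (8.57 to 10.7) lay above the scaled values, and those of Ccl2 and Ccl12 lay below. Whether these UMIs were free RNA or came from the metastatic-like cells themselves was not tested. Because the class held 64.6% of the UMIs of its library, the ratio of the library outside it was larger, at 25.4-fold for Ccl2 and 2.73-fold for Ccr2.

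Genes whose pattern over 26 sums of cells, each a class in a library, was most like that of each member were sought among 11336 genes by Pearson r of log2(CPM + 10). These sums share their library and the classes were defined by some of the genes. Ccl2 and Ccl7 were closest to each other (0.965), and Trem2, a macrophage lipid receptor, followed for Ccl2 (0.861). Ccl12 was closest to C1qc (0.982), C1qb (0.978) and C1qa (0.969), which define the macrophage-like class, and to Fcna (0.956), a ficolin of macrophages. Ccl8 was closest to Ccl12 (0.946). Ccr2 was closest to Gpr183 (0.945), an oxysterol receptor that guides immune cells, Cd52 (0.938), Epsti1 (0.937), Gpr65 (0.935) and Phf11b (0.932), and its r with the ligands was between 0.329 and 0.424.

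Related genes were read in the C1q macrophage-like class from lists of the pathway, beside a median log2 ratio of 0.03 over all 8615 genes, of which 12.4% were past 2-fold lower. Of the 16 other CC chemokines, 9 had at least 50 UMIs, with 2 past 2-fold higher, 2 lower and a median of -0.42. Ccl4, an inflammatory chemokine, was at 136 and 791 CPM at low and high burden (log2 ratio 2.54, 2.03 to 3.10), and Ccl5 at 70.1 and 148 CPM (1.08). Ccl6 was at 859 and 908 CPM (0.08). Ccl21a, a chemokine of lymphatic vessels, was at 114 (26 UMIs) and 14.4 CPM, Ccl24 (eotaxin-2) at 162 and 36.3 CPM and Ccl9 at 688 and 412 CPM. The lymphatic endothelial-like class had 26 low-burden and 2 high-burden cells, and whether this Ccl21a was free RNA was not tested.

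Among other receptors and scavengers, Ccr1, an inflammatory chemokine receptor, was at 96.4 and 158 CPM (log2 ratio 0.72, 0.11 to 1.40) and Ccrl2 at 193 and 294 CPM (0.61, 0.18 to 1.07), both within 2-fold. Ackr1, Ackr2 and Ackr4, which take up chemokines without signalling, had 9 UMIs or fewer each in either library of this class.

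Among inducers of the ligands, the cytokine genes Il1a, Tnf and Il1b were past 2-fold higher, with log2 ratios of 2.39 (0.53 to 5.44, from 2 low-burden UMIs), 1.79 (0.81 to 3.01) and 1.05 (0.60 to 1.53). The NF-kappaB subunits Nfkb2, Relb and Rela were past 2-fold lower, from 11, 15 and 16 low-burden UMIs. Their ratios were -1.72 (-2.61 to -0.68), -1.34 (-2.10 to -0.48) and -1.08 (-1.81 to -0.26). These intervals, like those of the cytokine genes, reached inside 2-fold. Nfkb1 (-0.12) and the inhibitor gene Nfkbia (-0.61) lay within 2-fold. Of the 8 genes of monocyte recruitment and survival, 6 had at least 50 UMIs, with 1 past 2-fold higher, 2 lower and a median of 0.05. Itgam (CD11b) was at 56.9 and 137 CPM (1.26), Cx3cr1 at 381 and 485 CPM (0.35) and Itgb2 at 136 and 140 CPM (0.05). Csf1r, the receptor for macrophage colony-stimulating factor, was at 942 and 417 CPM (-1.18) and its ligand gene Csf1 at 17.5 and 7.79 CPM from 4 low-burden UMIs (-1.17, -2.59 to 0.75). Cx3cl1 had 52 UMIs at high burden and 0 at low burden, which gives no direction.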

How the data were processed

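Droplet-based single-cell RNA sequencing was performed on dissociated lungs, and the sample titles gave the groups. The authors processed reads with Cell Ranger 2.0.2 on mm10 with the PYMT sequence added (per the labels and methods), and the deposited values are raw UMI counts. Whether they precede the study's aggregation step is not stated. The files held 5789 barcodes, slightly more than the study gives, and 5506 passed its filter (1000 to 7000 genes, at most 10% mitochondrial UMIs), close to its own number.

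Cells were gated by marker lists (at least 2 markers detected and a minimum of marker UMIs per 10000, between 5 and 200 by class). The cutoffs were set after the data were seen, without the levels of the 5 genes. Of 62 low-burden and 850 high-burden cells past the C1q gate, 8 and 38 cells lay within 1.5 times of its cutoff. Cells past several unrelated gates (13.1% and 8.51%) and past no gate (4.93% and 5.34%) were kept apart. Names were rebuilt, so differences from the study may come from them. Doublets were kept, and Scrublet marked 3 and 8 cells, too few to have worked.

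UMIs were summed per class and scaled to CPM. Intervals were exact Poisson (levels), conditional binomial (ratios) and Clopper-Pearson (shares) at 95%, and a count of 0 was limited at 3 counts. Ratios past 2-fold with at least 50 UMIs in classes of at least 20 cells per library were called, since 1 library per group allows no test. The ratio step was tested on simulated Poisson counts, which carry no spread between cells. Thinning was checked on cells of these data, only for reaching the set depth. The genes named are the 5 members, the 5 genes most like each (at least 200 UMIs) and the 3 highest and lowest of 4 lists. Some genes of these lists are not reported here, so counts over 2 of the lists are left out. The Ccl8-rich and Ccl2-rich cells and the genes named for them were chosen after their values were seen. The members and lists were chosen with earlier results of these data known. Python 3.11.15, scipy 1.17.1 and scanpy 1.11.5 were used.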

Additional observations from a re-analysis of the deposited data

How the results depend on the processing

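Over 8 other ways of processing, the log2 ratio in C1q macrophage-like cells ranged from 0.66 to 1.68 for Ccl2 (6 of 8 past 2-fold), 1.49 to 2.52 for Ccl7, 2.36 to 2.95 for Ccl8, 1.42 to 2.28 for Ccl12 (8 of 8 for each of these 3) and 0.15 to 0.69 for Ccr2 (0 of 8), and no direction was reversed. With Leiden clusters in place of gates the ratios were 1.68 for Ccl2, 2.52 for Ccl7 and 2.20 for Ccl12, at 2000 UMIs per cell 0.66 for Ccl2 and 1.76 for Ccl12, and without the top cell of each library 2.28 for Ccl12. The cause of these shifts was not tested. High-burden levels with Leiden clusters and with free RNA subtracted were 849.9 and 834.5 CPM for Ccl2, 763.5 and 766.3 for Ccl7, 303.4 and 313.3 for Ccl8 and 1294 and 1333 for Ccl12, and 150.1 for Ccr2 with free RNA subtracted. The class's share of each gene's UMIs with Leiden clusters and with metastatic-like cells left out was 84.14% and 80.89% for Ccl2, 83.87% and 84.82% for Ccl7, 86.01% and 91.19% for Ccl8, 88.83% and 89.84% for Ccl12, and 75.9% and 69.72% for Ccr2. Shares of high-burden cells at 1000 and 4000 UMIs were 40.0% and 67.81% for Ccl2, 36.16% and 57.09% for Ccl7, 9.272% and 17.35% for Ccl8, 44.64% and 65.3% for Ccl12, and 14.57% and 37.88% for Ccr2, and low-burden shares at 1000 UMIs were 3.774% for Ccl8 and 5.66% for Ccr2. In monocyte-like cells Ccr2 ranged from 0.74 to 1.81 (6 of 7 past 2-fold, not with 2-gate cells placed by their higher score), Ccl2 from 2.76 to 4.06 and Ccl7 from 5.62 to 6.73, and in fibroblast-like cells Ccl2 from 5.77 to 8.40 and Ccl7 from 6.87 to 8.36. Leiden clustering gave no monocyte-like cluster. Classical monocytes alone (Ccr2 0.40, Ccl2 2.87, Ccl7 5.37) and fibroblast-like cells without Wt1 (Ccl2 3.83, Ccl7 5.61) were added after the data were seen. With 1 library per group no replicate could be left out, and counts of 0 to 7 UMIs limit low-burden Ccl2 and Ccl7 in monocyte-like, fibroblast-like and mesothelial-like cells. No paired analysis was possible because each group is 1 library.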
